A study of Mus musculus with 6 samples.

Results

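The 508 DNA sequences described here vary only at positions 10 to 16 of a 16-base Gli site and were measured in 2 deposited tables. They were chosen as the sequences of a table of 16-base sequences whose first 9 bases hold the most frequent base at each position, matched by their last 7 bases to a block headed R4-R5 in the table of the R4-R6 binding reaction. The 16-base table held 510 such sequences among 1266, and the R4-R5 block held 508 among the 572 sequences of its table. All 508 matched sequences had at least 10 reads in each of the 4 counts, so none was removed by that minimum. Positions are counted from 1 at the first listed base. In 256 members positions 10 to 13 were varied, in 256 positions 13 to 16 were varied, and 4 members belong to both sets.

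Recombinant mouse Gli protein was mixed in vitro with double-stranded DNA libraries, and DNA running with and without protein on a gel was recovered separately, amplified by PCR and sequenced. The series holds 3 reactions with 1 bound and 1 unbound sample each, titled R1-R5, R6 and R4-R6. No reaction and no methylation state is named in the 16-base table. The labels of the R1-R5 samples list unmethylated libraries together with M.SssI methylated ones, M.SssI being an enzyme that methylates CpG. The labels of the R4-R6 samples describe a library named for CTCF, against their titles and the R4-R5 heading, which were followed here. The bases before position 10 are not listed in the R4-R5 block, so the match rests on the last 7 bases. No reaction was repeated: every error below is a counting standard error (SE) unless an SD over sequences is named, and no difference has a replicate check.

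Gli proteins are zinc finger transcription factors that carry the output of the Hedgehog pathway. Each zinc finger contacts a few neighbouring base pairs, and the first 9 bases shared by all members, gaccaccca, are the well-known Gli consensus site. In a binding assay of this type (Spec-seq), the ratio of bound to unbound reads of a sequence follows its relative affinity within one reaction. The level of the ratio also depends on protein amount and on the depth of each fraction, so levels are comparable between reactions only after a common shift is removed.

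The sequences that carry the comparison are the reference, which holds the most frequent base at each position, and the members that were strongest or moved most between the tables. Capitals mark the 7 compared positions in the reference and the bases changed from it in the others.
Reference, AGATGAA: gaccacccaAGATGAA
Strongest in the R4-R6 reaction, CGTTGAA: gaccacccaCgTtgaa
Strongest in the 16-base table, CGAGGAA: gaccacccaCgaGgaa
Ranked 3 in the 16-base table, CGGGGAA: gaccacccaCgGGgaa
Strongest of positions 13 to 16 in the R4-R6 reaction, AGACGAA: gaccacccaagaCgaa
Strongest of positions 13 to 16 in the 16-base table, AGACGCC: gaccacccaagaCgCC
Weakest in the R4-R6 reaction, AAAGGAA: gaccacccaaAaGgaa
Weakest in the 16-base table, AGAAATA: gaccacccaagaAATa
Moved furthest down from the 16-base table, AGACCCG: gaccacccaagaCCCG
Moved up second to CGTTGAA from the 16-base table, CATTGAA: gaccacccaCATtgaa

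The reads were spread very differently in the 2 tables. Members had 1320783 bound and 32202 unbound reads in the 16-base table, so 97.6% of their reads were bound. In the R4-R6 reaction they had 341388 bound and 523242 unbound reads, or 39.5% bound. Unbound reads limit the precision of the 16-base table, with a median of 56 per member, a lowest count of 12 (AGAACCC) and 59 members under 30. In the R4-R6 reaction the lowest count was 36 bound reads (AGACCCC). The median counting SE of the natural log of bound over unbound was 0.135 in the 16-base table and 0.060 in the R4-R6 reaction. The reads carry no stated molecular identifiers, and PCR copies are not independent, so these SEs cover counting error only.

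The R4-R6 reaction separated the members over a far wider range than the 16-base table. Log ratios spanned 108-fold in the R4-R6 reaction, from AAAGGAA to CGTTGAA, and 6.49-fold in the 16-base table, from AGAAATA to CGAGGAA. Their SD over members was 0.97 in the R4-R6 reaction, against 0.35 in the 16-base table. Counting error made up 17.6% of the variance in the 16-base table and 0.55% in the R4-R6 reaction, so most of the spread in both lay beyond it. The median log ratio was -0.80 in the R4-R6 reaction, against 3.59 in the 16-base table, and the median difference between them, -4.34, was removed before members were compared.

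The same sequences were ordered differently in the 2 tables. Across the 508 members Pearson's r was 0.334 and Spearman's rho 0.317, as a description over sequences that share libraries and depth. Only 73 members reached 100 reads in all 4 counts, which needs many unbound reads, and over these r was 0.0401. Differences between the tables also hold their unequal spread, with an SD over members of 0.97 for the R4-R6 reaction against 0.35 for the other. Centring removes a common shift but not this inequality, so the SD and counts that follow do not measure order alone. The SD of the difference was 0.92 on the log scale, 5.63 times the counting SE of 0.16. A difference beyond 2 counting SE after centring was found in 380 of 508 members (74.8%). Past 2-fold, 115 members (22.6%) were relatively higher in the R4-R6 reaction and 117 (23.0%) relatively lower. That even split comes from centring on the median: centred on the reference, 0 members were over 2-fold higher and 458 lower, and centred on each table's total reads these counts were 0 and 480.

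The reference itself shows the contrast. AGATGAA had 8450 bound and 236 unbound reads in the 16-base table, a ratio of 35.8, and ranked 266 of 508. In the R4-R6 reaction it had 3292 bound and 898 unbound reads, a ratio of 3.67, and ranked 13. Windows overlap at position 13, and the 16-base table has a further window over positions 7 to 10, so the reference and the variants at positions 10 and 13 can hold reads from more than one library, which the tables do not separate.

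Of the 507 other members, 495 lay below the reference in the R4-R6 reaction, against 242 in the 16-base table. In the R4-R6 reaction 435 of the 507 (85.8%) lay over 2-fold below the reference and 1 (0.197%), CGTTGAA, over 2-fold above it. The 16-base table had 1 member, AGAAATA (0.197%), over 2-fold below the reference and 21 members (4.14%) over 2-fold above it. Of the 21 single-base variants, 13 were over 2-fold lower in the R4-R6 reaction, against 0 over 2-fold lower in the other table, and 0 were over 2-fold higher in either.

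Position 11 held the largest single-base effect in both tables, at very different sizes. G11A had 76 bound and 569 unbound reads in the R4-R6 reaction, and its log ratio lay -3.31 ± 0.13 from the reference. Its 16-base counts were 1068 and 58 reads, at -0.67 ± 0.15, the lowest of the 21 variants there too. G11T lay at -2.42 ± 0.07 in the R4-R6 reaction, against -0.35 ± 0.16 in the 16-base table, and G11C at -1.55 ± 0.07 and -0.29 ± 0.16. All changes of this G were thus negative in both tables, though G11C in the 16-base table lay within 2 counting SE of 0.

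Position 14 followed the same pattern. G14A lay at -2.77 ± 0.10 in the R4-R6 reaction, against -0.58 ± 0.17 in the 16-base table, G14C at -2.07 ± 0.08 and -0.25 ± 0.17, and G14T at -2.06 ± 0.07 and -0.30 ± 0.17. Among these variants, A was the least favoured base in place of either G, in both tables. Changes of the 2 Gs, at positions 11 and 14, were the 6 largest falls in the R4-R6 reaction.

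Position 10 was the place of the largest gain. A10C had 1551 bound and 213 unbound reads in the R4-R6 reaction and 4445 and 72 in the 16-base table. It lay 0.68 ± 0.08 above the reference in the R4-R6 reaction, against 0.54 ± 0.14 in the 16-base table. These effects differed by 0.14 ± 0.16, less than the counting error of the difference. A10T lay at -0.56 ± 0.06 and -0.03 ± 0.11, a difference of -0.53 ± 0.13.

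Some substitutions had little effect in both. T13C lay at 0.23 ± 0.06 in the R4-R6 reaction, against 0.25 ± 0.13 in the 16-base table, with a difference of -0.03 ± 0.14. A12T lay at -0.09 ± 0.06 and -0.20 ± 0.12, and T13A at -0.08 ± 0.06 and -0.24 ± 0.12. A16T was the 1 variant whose effect was less negative in the R4-R6 reaction by more than 2 counting SE, at 0.06 ± 0.07 against -0.26 ± 0.14. In 16 of the 21 variants the effect was more negative there by more than 2 counting SE, A12C by the widest margin outside positions 11 and 14, at -1.51 ± 0.07 against 0.13 ± 0.15. Centred on the same reference, 458 of all 508 members were over 2-fold lower in the R4-R6 reaction. A more negative effect there was thus common to most members and not particular to these variants.

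Averaged over each window, C at position 10, G at position 11 and G at position 14 were the strongest bases in both tables. At position 10 the order of means was C, G, T, A in both. C had a mean log ratio of 0.45 ± 0.84 (SD, n = 64 sequences) in the R4-R6 reaction, against 3.98 ± 0.35 in the 16-base table. The means for A were -0.84 ± 1.10 and 3.47 ± 0.26. The gap between the best and worst base was 1.29 and 0.51. At position 14 the order was G, T, C, A in the R4-R6 reaction and G, C, T, A in the 16-base table, with gaps of 1.99 and 0.35.

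Elsewhere the order of bases changed. G was the highest base and C the next at each position of both windows of the 16-base table, except position 10, where C came first and G next. C at position 12 was the lowest base in the R4-R6 reaction, with a mean of -1.17 ± 0.83, and G at position 13 in the window 10 to 13 was the lowest, with -1.10 ± 0.84 (SD, n = 64 each). The same bases ranked second and first in the 16-base table, with means of 3.76 ± 0.36 and 3.90 ± 0.35. At positions 15 and 16 A and T were above G and C in the R4-R6 reaction, and G and C above A and T in the 16-base table. Position 13 in the window 13 to 16 had G as the highest base in both, with gaps of 0.29 and 0.37. SDs over sequences include the effects of the other varied bases.

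A least-squares fit of 1 term per base and position separates those effects. It accounted for 82.2% of the variance in the R4-R6 reaction, against 79.6% in the 16-base table over positions 10 to 13, and for 81.7% and 72.6% over positions 13 to 16. The fitted values of the 2 tables had r = 0.400 over positions 10 to 13 and 0.282 over positions 13 to 16. The residuals had r = -0.0008 and 0.091, so what the terms left over was nearly uncorrelated between the tables. Residual SDs of 0.45 and 0.39 in the R4-R6 reaction were far above the counting SEs of 0.07. Those of the 16-base table, 0.17 and 0.16, were close to the counting SE of 0.15. The low r of the residuals therefore cannot show whether effects beyond the terms differ between the tables.

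The sign of the fitted terms was shared by 9 of 12 over positions 10 to 13 and by 6 of 12 over positions 13 to 16. Some shared signs rest on R4-R6 terms smaller than their regression SE, such as A12G (0.003 ± 0.08) and A16T (0.02 ± 0.07), and are uncertain. The term for A10C was 1.29 ± 0.08 (regression SE) in the R4-R6 reaction, against 0.51 ± 0.03 in the 16-base table, and that for G14A was -1.99 ± 0.07 and -0.35 ± 0.03. Opposite signs were largest for T13G in the window 10 to 13, with -0.84 ± 0.08 and 0.33 ± 0.03, and A12C, with -0.97 ± 0.08 and 0.11 ± 0.03. Over positions 15 and 16, the terms for A15C, A15G, A16C and A16G were negative in the R4-R6 reaction, from -0.38 to -0.20, and positive in the 16-base table, from 0.19 to 0.28.

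Correlations between the tables depended on how the members were divided. Classes set by C at position 10, G at position 11 and G at position 14 follow preferences already known from the R4-R6 reaction, 1 of the 2 measures correlated, so their levels and correlations are a description. Divided by other bases of the window 10 to 13, r was 0.472 in the 64 members with C at position 12 and 0.356 in the 192 without it. For G at 13 it was 0.562 in the 64 members with it and 0.451 in the 192 without it. C at 12 and G at 13 are the lowest bases of their positions in the R4-R6 reaction, so this division too is a description. The 16 members with C at position 10 and G at position 11 had the highest mean of the 16 base pairs at these positions in both tables, 1.26 ± 0.68 (SD) in the R4-R6 reaction, against 4.25 ± 0.27 in the 16-base table. AA had the lowest mean in both, -1.62 ± 0.51 and 3.31 ± 0.24. Among the 48 members with C at position 10 but no G at 11, r between the tables was -0.318. It was -0.465 among the 48 with G at 11 but no C at 10, and 0.103 among the 144 with neither.

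Within the CG class the order was nearly turned around, with r = -0.764 and rho = -0.688 over 16 sequences. CGTTGAA had the highest ratio of all members in the R4-R6 reaction, 8.71 from 2586 bound and 297 unbound reads. The 16-base table gave it 3024 and 63 reads, a ratio of 48.0 and rank 128. CGGGGAA was the lowest of the class in the R4-R6 reaction, with 1781 bound and 2252 unbound reads and a ratio of 0.791. Its ratio in the 16-base table was 112, from 9389 and 84 reads, and it ranked 3 there. CGAGGAA ranked first in the 16-base table, with 4175 and 36 reads and a ratio of 116, and 69 in the R4-R6 reaction, with 1232 and 648 reads and a ratio of 1.90. After centring, 12 of the 16 lay over 2-fold higher in the R4-R6 reaction and 0 lower, against 22.6% and 23.0% of all members. The class was set by bases favoured in the R4-R6 reaction, whose log ratio enters this difference. These counts are therefore a description, not separate support.

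Over positions 13 to 16 the G at position 14 divided the members in the same way. The 64 members with this G had a median log ratio of 0.48 in the R4-R6 reaction, against 3.71 in the 16-base table. The 192 without it had -1.34 and 3.44. In the R4-R6 reaction the classes overlapped only between ratios of 0.560, the lowest with G, and 0.893, the highest without it. They overlapped widely in the 16-base table, where ratios ran from 24.8 to 88.6 with G and from 17.8 to 67.1 without it. Within the classes r between the tables was -0.440 and -0.019, against 0.238 over the whole window.

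G at position 13 before G at position 14 was a further point of divergence. The 16 members with both had a median of -0.43 in the R4-R6 reaction, below 0.62 in the 48 with G at 14 alone. The order was the other way in the 16-base table, with 3.87 against 3.66. AGAGGGG and AGAGGCG, 2 of this class, ranked among the 3 strongest sequences of the window in the 16-base table, with ratios of 67.2 and 68.9, and had ratios of 0.560 and 0.584 in the R4-R6 reaction. After centring, 40 of the 48 with G at 14 alone and 1 of the 16 with both lay over 2-fold higher in the R4-R6 reaction, against 22.6% of all members. Both classes build on a base favoured in that reaction, whose log ratio enters the difference, so these counts too are a description.

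The number of G and C moved with the 16-base table and hardly with the R4-R6 reaction. Median log ratios in the 16-base table rose with each added G or C at positions 10 to 16, from 3.15 in the 32 members with 1 to 3.36, 3.58, 3.92 and 4.20 in those with 2, 3, 4 and 5. The medians in the R4-R6 reaction were -1.05, -0.87, -0.76, -0.73 and -0.68. This number alone accounted for 60.9% of the variance in the 16-base table and 1.28% in the R4-R6 reaction. With the mean of each number removed from both tables, r over all members was 0.418, above the 0.334 without that step. At a fixed number of G and C, r ran from 0.316 (126 members with 2) to 0.598 (32 members with 5). In the 32 members with 1 G or C, the spread of the 16-base table, 0.14 (SD), was below its counting SE of 0.16. That spread alone therefore gives no sign of an order among them, though their r between the tables was 0.358. The part of base composition in the difference between the tables was not tested.

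Members with and without a CpG were compared at a matched number of G and C. With 3 G or C, the median log ratio in the 16-base table was 3.58 in 47 members with a CpG and 3.57 in 143 without. With 4 it was 3.92 in 68 and 3.92 in 60. Members with a CpG were higher in the 2 classes where one side is small, at 3.47 in 8 against 3.35 in 118 with 2 G or C, and at 4.24 in 26 against 4.10 in 6 with 5. Members with a CpG were higher in the R4-R6 reaction, at -0.44 against -0.81 with 3 and -0.27 against -0.85 with 4. CpG classes there include the favoured pairs C10-G11 and C13-G14. Each of the 64 members of the window 10 to 13 with C at position 13 holds a CpG with the fixed G at 14. Their mean in the 16-base table, 3.82 ± 0.35 (SD), lay above that of A, 3.60 ± 0.34, and T, 3.56 ± 0.30, and below that of G, 3.90 ± 0.35, which forms no CpG there. How methylation bears on these values was not tested, since neither table states it for these sequences.

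The 6 largest relative rises in the R4-R6 reaction were in sequences with G at position 14 and C at 10 or G at 11. All 6 held 2 to 4 G or C, as did 126, 190 and 128 of all 508 members with 2, 3 and 4. G at 14 is fixed in the window 10 to 13, where C at 10 alone, G at 11 alone and both occur in 48, 48 and 16 members. G at 11 is fixed in the window 13 to 16, where G at 14 occurs in 64. These traits are thus common among the members. The bases are also those favoured in the R4-R6 reaction, whose log ratio enters the difference ranked, so their presence here is a description. CGTTGAA moved furthest, 14.1-fold (2.64 ± 0.14 after centring). CATTGAA followed, with 11.6-fold (2.45 ± 0.14). It had 1645 bound and 466 unbound reads in the R4-R6 reaction, ranking 16, and 1512 and 64 in the 16-base table, ranking 465. CGTAGAA was 11.4-fold higher, AGATGAT 10.9-fold, and AGTAGAA and CGTCGAA were next, at 2.38 ± 0.13 and 2.25 ± 0.16 on the centred log scale.

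Of the 6 largest relative falls, 3 were in sequences without G at position 14 and 3 in sequences with neither C at 10 nor G at 11. These classes hold 192 (37.8%) and 144 of all 508 members. Both are low in the R4-R6 reaction, whose log ratio enters the difference ranked. AGACCCG fell by 1.97 ± 0.19 on the centred log scale, a 7.16-fold difference. It had 121 bound and 1011 unbound reads in the R4-R6 reaction, ranking 500, and 2416 and 36 in the 16-base table, ranking 30. GCCCGAA differed 6.04-fold and AAAGGAA 5.78-fold, followed by AGACCGG (-1.71 ± 0.13), GCCGGAA (-1.69 ± 0.14) and AGACCTC (-1.63 ± 0.28). AAAGGAA had 41 bound and 513 unbound reads in the R4-R6 reaction, the lowest ratio there, 0.080, and 1815 and 50 in the 16-base table, near the middle of its order at rank 261. Of these 6 falls, 5 were in members with 4 or 5 G or C, against 160 of all 508 members (31.5%).

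The lists of strongest members overlapped in part. Of the 127 strongest in each table, 50 were shared, or 39.4% of each list, where each list is 25.0% of all members. Of the 50 strongest, 9.84% of all members, 11 were shared (22.0%), and of the 10 strongest, 1.97% of all members, 1 was (10%). The strongest 127 of the 16-base table held 108 members with 4 or more G or C, those of the R4-R6 reaction 48, and the members as a whole 160. Members lacking G at position 14 made up 22 of the strongest 127 (17.3%) in the 16-base table and 0 in the R4-R6 reaction, against 192 of all 508 members (37.8%). Of the 50 shared members, 24 had C at position 10 in the window 10 to 13, 22 had G at position 11, with 13 holding both, and 12 belonged to the window 13 to 16 with G at position 14. The classes with C at 10, G at 11 and G at 14 each hold 64 of all 508 members (12.6%), and C at 10 with G at 11 holds 16 (3.15%). Among the weakest 127, 41 were shared.

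Read numbers were alike in the 2 tables where ratios were not. The log of bound plus unbound reads per member had r = 0.825 between the tables. For bound reads alone r was 0.669 and for unbound reads 0.736. Bound reads of the 16-base table rose with the number of G and C, with r = 0.536, and unbound reads less, with r = 0.138. The values for the R4-R6 reaction were 0.160 and 0.080. Members with many reads in one table therefore tended to have many in the other.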

How the data were processed

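Per the file headers, the authors deposited 2 counts of reads for each sequence, bound and unbound, as whole numbers not scaled for depth. The authors also deposited the ratio of bound to unbound counts, and a column without a heading that equals minus the natural log of that ratio within 0.0005. How reads were counted and filtered is not given in the sources used here.

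The natural log of bound over unbound was computed after adding 0.5 to each count. Ratios quoted without a log are of the counts as deposited. The counting SE was the square root of the summed reciprocal counts. Differences between tables were the log ratio of the R4-R6 reaction minus that of the 16-base table, centred on their median over 508 members. With 1 library per fraction no test was run and no p-value computed, so members were called past a 2-fold difference. The members, classes and lists were chosen with earlier results of these data known. Sequences named were the reference, its single-base variants, the 3 strongest and 3 weakest of each window and table, the 6 largest differences in each direction, and those with the fewest reads; members of the CG and GG classes and pairs were added after their values were seen. Alternatives covered the pseudocount, read minimum, centring, fold, weighting, the deposited ratio and the reading direction of the varied bases. On 100 simulated data sets of 508 sequences, 99.95% of 4-fold rises and 0.045% of unchanged sequences were called. In these, both tables had the same underlying log ratios apart from a common shift and equal numbers of rises and falls. The deposited tables differ in spread, so these rates cover counting error only and are not error rates of the calls reported. Values were computed with pandas 2.3.3 and numpy 2.4.6 in Python 3.11.15.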

Additional observations from a re-analysis of the deposited data

Results flagged for a closer look

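A pair of substitutions went in opposite directions in the 2 tables by more than 2 counting SE in each. A10G lay at 0.23 ± 0.11 from the reference in the 16-base table (6734 bound and 150 unbound reads) and at -1.10 ± 0.05 in the R4-R6 reaction (1390 and 1136). T13G lay at 0.22 ± 0.10 in the 16-base table (7341 and 164 reads) and at -1.18 ± 0.05 in the R4-R6 reaction (2379 and 2115). These directions hold against the reference and not throughout the windows. The fitted term for A10G was positive in both, 0.40 ± 0.03 (regression SE) in the 16-base table and 0.17 ± 0.08 in the R4-R6 reaction. Over positions 13 to 16 the term for T13G was also positive in both, 0.32 ± 0.03 and 0.10 ± 0.07. Over positions 10 to 13 it kept opposite signs, 0.33 ± 0.03 and -0.84 ± 0.08. Each table is 1 pair of libraries, so the difference between reactions was not tested.

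The 16-base table also lists 2 sequences that keep the first 9 bases but are not in the R4-R5 block, and no comparison used them. AGGGGAT, with 3 bases changed from the reference, had 44 bound reads and 1 unbound read. GGCGGAT, with 4 changed, had 53 bound reads and 1 unbound read. Their changes span more than one window of 4 positions.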

How the results depend on the processing

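No replicate could be left out, since each reaction has 1 bound and 1 unbound library. Each log ratio paired the bound and unbound counts of its table, and each difference paired a sequence across the tables. No test was run, since no reaction was repeated. Recomputed values not given here kept their sign, and counts among them stayed within 1.5 times those reported. The cause of the changes below was not tested unless the setting itself gives it. With at least 100 reads in each count, which leaves 73 members, r was 0.0401 over all members, 0.0455 over positions 10 to 13 and 0.0478 over positions 13 to 16, the slope of the 16-base table on the R4-R6 reaction was 0.0156 against 0.119, and 17 members were over 2-fold higher and 19 lower. Weighting by counting variance gave r = 0.243 over all members and 0.214 over positions 10 to 13. With the varied bases of the R4-R5 block read reversed, complemented or reverse complemented, r was 0.127, 0.084 and -0.091 over positions 10 to 13, and 0.017, -0.030 and -0.033 over positions 13 to 16, each below the value as listed. Within classes, alternatives chosen after seeing the data, r was -0.764 (CG at positions 10 and 11), 0.103 (neither), -0.440 (G at position 14) and -0.019 (other bases there). The median difference was -2.33 once each table's total log ratio was subtracted, against -4.34. Members over 2-fold higher went from 115 to 0 when centred on the reference or on total reads, and to 181 beyond 2 counting SE. Members over 2-fold lower went from 117 to 458 and 480 under these centrings, 199 beyond 2 counting SE, 186 at 1.5-fold and 45 at 3-fold. Single-base variants lower in the 16-base table went from 0 to 2 at 1.5-fold and 5 beyond 2 counting SE. Those higher there went from 0 to 1 and 3, and those higher in the R4-R6 reaction from 0 to 1 and 2. The shared strongest members numbered 11 of the 50 strongest, against 50 of the 127 strongest. Unbound reads in the 16-base table limit the precision of single members.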
